A study of Mus musculus with 71 samples.

Results

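The 40 genes described here encode the machinery of the lysosome in mouse microglia, the macrophages of the brain parenchyma. They comprise 10 lysosomal membrane proteins (Lamp1, Lamp2, Cd63, Cd68, Scarb2, Laptm5, Npc1, Mcoln1, Cln3 and Tmem106b), 13 hydrolases of glycans (Hexa, Gaa, Gusb, Glb1, Galns, Naglu, Sgsh, Ids, Arsb, Man2b1, Manba, Fuca1 and Neu1) and 5 enzymes and carriers of lipids (Asah1, Smpd1, Psap, Gm2a and Npc2). The remainder are 6 enzymes and proteins that act on protein and nucleic acid (Tpp1, Ppt1, Lgmn, Grn, Pld3 and Pld4) and 6 subunits of the proton pump (Atp6v0c, Atp6v0d1, Atp6v1a, Atp6v1b2, Atp6v1h and Atp6ap1). They were chosen by symbol for their function, with earlier results of these data known. All are listed in the 6 tables of the series, and they make up 40 of the 55413 gene symbols. All 40 reached a TPM (transcripts-per-million) value of 1 in enough libraries to be tested in every table.

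The series profiled microglia from mice carrying an Spp1-GFP reporter, in which cells with Spp1 (osteopontin) expression carry green fluorescent protein, by bulk RNA sequencing of 2000 sorted cells per library. Each of 6 models gave a GFP-positive group, a GFP-negative group and a reference group, with 67 libraries in 18 groups. The other samples of the series, 4 pools of hashed single cells, were not analysed here. In the adult models the GFP-positive and GFP-negative cells came from Spp1-GFP heterozygous mice and the control cells from wild-type mice. The cuprizone mice were 8 to 10 weeks old and had eaten cuprizone, a copper chelator that kills oligodendrocytes, for 5 weeks (3 GFP-positive, 3 GFP-negative and 4 control libraries). Glioma mice of the same age range were sampled 21 days after inoculation of CT2a glioma cells (4 libraries per group). EAE, experimental autoimmune encephalomyelitis, is an autoimmune attack on myelin, and those mice, 8 to 10 weeks old, had recovered to a clinical score of 1 to 2 (3 libraries per group). The 5xFAD mice carried the heterozygous 5xFAD transgenes, which express mutant human amyloid precursor protein and presenilin under a neuronal promoter, on the reporter background, and were 7 months old like their controls (4 libraries per group). Stroke was induced in the cortex of Spp1-GFP heterozygous mice on postnatal day 6 with tissue taken on day 9, or on day 28 with tissue taken on day 35 (4 libraries per group each). The stroke reference is the contralateral cortex of reporter mice, and its libraries are labelled as microglia while their table columns carry a GFP-negative name.

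In the adult models disease, reporter genotype and GFP gate all differ between a GFP group and its control, so these cannot be told apart in those contrasts. GFP-positive and GFP-negative cells share genotype and disease and differ in the gate. The labels do not say that the libraries of a group came from separate mice, so the p-values below measure the spread between these libraries, which may be technical. In bulk libraries, fewer cells of a kind and less RNA per cell cannot be told apart.

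The lysosome is the acidic organelle in which a microglial cell degrades what it takes up, including myelin, dead cells and amyloid. Hydrolases made in the endoplasmic reticulum reach it through the mannose 6-phosphate receptors, the vacuolar ATPase pumps protons into it, and heavily glycosylated membrane proteins such as LAMP1 and LAMP2 line its inner face. Loss of single members causes storage disease, for example of heparan sulphate when SGSH or NAGLU is lacking, and of lipofuscin when progranulin (Grn), Tpp1, Ppt1 or Cln3 is lacking. Many lysosomal genes carry an E-box-like element near the transcription start that is bound by TFEB and TFE3, transcription factors of lysosome biogenesis. Spp1, Cd63 and Apoe belong to the genes known to be high in microglia near amyloid and demyelinated tissue.

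The promoters of 5 members are printed to show which of the genes that carry the results below hold this element. They are RefSeq sequences of GRCm38.p6 from 250 bases before the listed gene start to 30 bases after it, in the direction of the gene, with each CACGTG in capitals. The windows are chr8:13158911-13159190 on the plus strand for Lamp1, chr11:119355481-119355760 on the minus strand for Sgsh and chr12:102439063-102439342 on the minus strand for Lgmn (of its 2 listed starts, the window that holds the motif). Those of Pld3 and Cd63 are chr7:27553189-27553468 on the minus strand and chr10:128909095-128909374 on the plus strand.
Lamp1: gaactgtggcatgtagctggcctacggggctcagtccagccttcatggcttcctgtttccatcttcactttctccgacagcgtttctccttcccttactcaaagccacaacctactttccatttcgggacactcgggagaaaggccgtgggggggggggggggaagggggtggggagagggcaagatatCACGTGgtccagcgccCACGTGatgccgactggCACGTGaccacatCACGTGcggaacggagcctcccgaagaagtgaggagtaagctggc
Sgsh: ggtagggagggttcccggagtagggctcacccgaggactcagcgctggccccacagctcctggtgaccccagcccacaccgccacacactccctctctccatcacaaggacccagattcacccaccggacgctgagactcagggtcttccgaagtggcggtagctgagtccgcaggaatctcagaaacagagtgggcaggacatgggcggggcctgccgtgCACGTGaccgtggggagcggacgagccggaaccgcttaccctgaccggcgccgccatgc
Lgmn: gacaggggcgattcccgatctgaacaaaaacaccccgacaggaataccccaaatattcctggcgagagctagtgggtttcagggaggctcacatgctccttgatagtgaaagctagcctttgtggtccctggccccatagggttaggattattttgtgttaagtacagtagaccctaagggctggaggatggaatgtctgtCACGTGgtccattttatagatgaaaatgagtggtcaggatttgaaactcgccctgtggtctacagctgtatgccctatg
Pld3: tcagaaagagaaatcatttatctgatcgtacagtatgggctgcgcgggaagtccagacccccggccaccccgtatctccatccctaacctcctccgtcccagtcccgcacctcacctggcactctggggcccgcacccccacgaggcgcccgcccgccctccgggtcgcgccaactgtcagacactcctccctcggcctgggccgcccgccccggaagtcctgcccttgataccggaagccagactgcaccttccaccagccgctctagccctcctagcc
Cd63: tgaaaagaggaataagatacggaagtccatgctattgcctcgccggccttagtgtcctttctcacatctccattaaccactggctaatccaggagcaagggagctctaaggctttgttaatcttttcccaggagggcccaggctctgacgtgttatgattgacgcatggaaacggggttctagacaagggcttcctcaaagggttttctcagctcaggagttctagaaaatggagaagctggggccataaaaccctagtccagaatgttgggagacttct
Lamp1 held 4 copies, beginning 61, 45, 28 and 15 bases before the start, Sgsh held 1 at 29 bases and Lgmn 1 at 49 bases. Pld3 and Cd63 held none in these windows. Promoters were listed for 35 of the 40 members, and CACGTG, which reads the same on both strands, was present in 10 of them (28.6%), against 7.7% of all 27025 genes with a listed promoter. The longer TCACGTGA, which contains it, was found in 4 members (Mcoln1, Cln3, Atp6v0d1 and Atp6v1a) and in 1.1% of all genes. A match describes letters in a window and not a bound site.

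The tables listed 13024 to 17865 genes above 0 per library. How deeply each library was sequenced cannot be read from TPM values, and no counting interval accompanies them. Spp1 was higher in every GFP-positive library than in every GFP-negative and reference library of the same table, with 224 to 3867 TPM against 0 to 129.9 TPM. The 10 microglial markers averaged above 1 TPM in every group. Their summed level was lower in GFP-positive than in GFP-negative libraries with no overlap in all models except glioma and P6 stroke. In glioma the summed microglial markers were 3104 to 4985 TPM in GFP-positive and 4873 to 11815 TPM in GFP-negative libraries, against 25871 to 30818 TPM in controls. There the 8 markers of monocyte-derived cells summed to 954 to 2803 TPM in GFP-positive and 2195 to 5378 TPM in GFP-negative libraries, against 34.98 to 87.3 TPM in controls. The same 8 markers summed to 92.5 to 172 TPM in the EAE GFP groups against 8.08 to 13.7 TPM in controls, and to 76.95 to 210 TPM in P28 stroke GFP-positive against 20.45 to 27.2 TPM in GFP-negative libraries. In cuprizone, 5xFAD and P6 stroke no library's sum exceeded 80.8 TPM, and Chil3 was listed at 0 in all cuprizone libraries. In P6 stroke the 7 neutrophil markers summed to 185 to 507 TPM in GFP-negative libraries, above the 93.8 to 153 TPM of GFP-positive and 116 to 129 TPM of contralateral libraries without overlap, with Ly6g listed at 0 in all of them. In glioma further lists differed from the controls. Border-associated macrophage markers summed to 155 to 482 TPM in GFP-negative and 189.9 to 1078 TPM in GFP-positive libraries against 23.96 to 51.4 TPM in controls. Dendritic cell markers summed to 212 to 589, 11.48 to 172 and 22.9 to 77.3 TPM in the same order, NK cell markers to 124 to 248, 27.2 to 260.2 and 4.82 to 9.56 TPM, and T cell markers to 22.1 to 30.2, 25.9 to 117 and 0 to 0.950 TPM. The part of these other cells in the results on the members was not tested. Apoe alone took 1.96% to 10.8% of all TPM in GFP-positive libraries and 0.0768% to 4.72% in the others.

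Because TPM values of a library share a fixed total, they can shift when a few genes take much of it. The part of Apoe or of other high genes in the medians that follow was not tested. The median log2 difference of all genes tested, GFP-positive minus GFP-negative, was -0.25 in cuprizone, -0.15 in glioma, 0.05 in EAE, -0.29 in 5xFAD, -0.12 in P6 stroke and -0.30 in P28 stroke. Calls of members, their counts and the means over members are therefore given on the deposited scale and, where the call, the count or the direction differs, also after rescaling every library by the median of its ratios to the geometric mean library, which moves those medians close to 0. All differences below are of mean log2(TPM + 1), which understates the change of low genes, and a gene is called when its Benjamini-Hochberg adjusted p over all genes of the table is below 0.05 in limma. EAE GFP-negative library 1 stood apart, with Arsb at 37.92 TPM against 168.46 and 123.25 in the other GFP-negative libraries, and EAE counts are given with and without it.

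Lgmn, the asparaginyl endopeptidase legumain, had the highest mean over the 6 reference groups at 5587 TPM, with group means from 4816 to 7342 TPM. Laptm5, a membrane protein of haematopoietic cells that takes part in lysosomal sorting of receptors, followed at 5086 TPM with a range of 4040.5 to 7256 TPM, so those ranges overlap and the order between them was not fixed. At the other end were Sgsh, the sulphamidase of heparan sulphate, at 12.4 TPM (group means 9.61 to 14.8) and Ids, the iduronate sulphatase, at 4.08 TPM (group means 1.11 to 10.9). The tables were normalised separately, so these levels are set side by side and not tested. Summed over the 40 genes, the members took 1.54% to 3.21% of all TPM of a library.

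Averaged over the 40 genes, GFP-positive and GFP-negative cells differed by at most 0.29 on the log2 scale in any model on the deposited scale. The mean of log2(TPM + 1) in cuprizone was 7.70, 7.75 and 7.61 in GFP-positive libraries and 7.65, 7.68 and 7.60 in GFP-negative libraries, a difference of 0.04 between overlapping groups. Glioma gave 7.68, 7.58, 7.36 and 7.38 against 7.47, 7.60, 7.18 and 7.42, also overlapping, and 5xFAD gave 7.78, 7.74, 7.77 and 7.66 against 7.69, 7.73, 7.78 and 7.74, overlapping and with means of 7.74 ± 0.05 and 7.74 ± 0.03 (SD, n = 4 each). These 3 models thus showed overlapping groups on the deposited scale. The groups did not overlap in the other models. EAE gave 8.08, 8.14 and 8.17 against 7.58, 7.97 and 7.98, where GFP-negative library 1 was the low one. P6 stroke gave 7.99, 7.90, 8.02 and 7.90 against 7.84, 7.79, 7.87 and 7.88, and P28 stroke gave 7.80, 7.78, 7.84 and 7.85 against 7.72, 7.58, 7.61 and 7.67. The GFP-positive minus GFP-negative differences were 0.29 in EAE, 0.11 in P6 stroke and 0.17 in P28 stroke. After rescaling the same 6 differences were 0.33 in cuprizone, 0.27 in glioma, 0.22 in EAE, 0.34 in 5xFAD, 0.24 in P6 stroke and 0.50 in P28 stroke, with groups that did not overlap in any model. Against the reference, the mean on the deposited scale was higher without overlap in both 5xFAD GFP groups (control libraries at 7.61, 7.55, 7.47 and 7.50), in EAE GFP-positive and in P28 stroke GFP-positive libraries. The differences were 0.20 in 5xFAD GFP-negative, 0.21 in 5xFAD GFP-positive, 0.30 in EAE and 0.26 in P28 stroke. It was lower without overlap in glioma GFP-negative libraries (controls at 7.72, 7.67, 7.82 and 7.71), at -0.31, and in P6 stroke GFP-negative libraries, at -0.07. After rescaling the higher means stayed separate from the reference, at 0.54, 0.88, 0.77 and 0.61, while glioma GFP-negative libraries turned to 0.10 and P6 stroke gave -0.01, both with overlap. Rescaling also separated glioma GFP-positive (0.37), EAE GFP-negative (0.55), P6 stroke GFP-positive (0.23) and both cuprizone GFP groups (0.13 and 0.46 for GFP-negative and GFP-positive) from their reference, all upward. The part of the other cell types, whose markers are given above, was not tested.

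**Figure D1:**
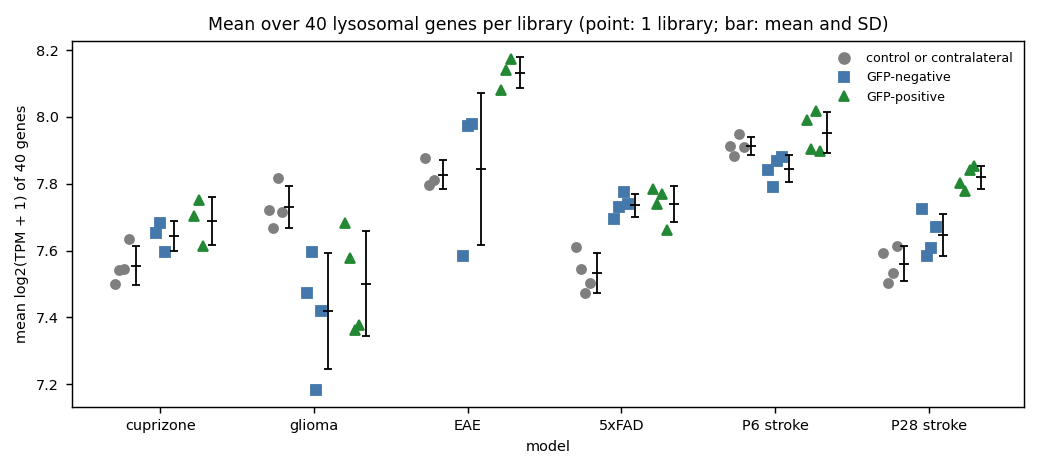
Mean of log2(TPM + 1) over the 40 lysosomal genes in each library (points) for the 6 models, with the group mean and SD as bars, for control or contralateral, GFP-negative and GFP-positive groups. Levels are comparable within a model; the 5xFAD GFP groups averaged 7.74 each against 7.53 in controls.

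Averaged over its 6 subunits, log2(TPM + 1) of the proton pump on the deposited scale was higher in GFP-positive than in GFP-negative libraries without overlap in cuprizone, glioma, EAE and P6 stroke, by 0.21, 0.24, 0.27 and 0.19. In 5xFAD the difference was -0.08 and in P28 stroke 0.12, with overlapping groups in both. After rescaling it was higher in GFP-positive libraries without overlap in all 6 models, by 0.50 in cuprizone, 0.42 in glioma, 0.20 in EAE, 0.27 in 5xFAD, 0.33 in P6 stroke and 0.45 in P28 stroke, so the difference in 5xFAD changed its sign with the scale. Such rises were not particular to the pump. On the deposited scale EAE also had separate rises of glycan hydrolases (0.40), membrane proteins (0.37) and the protein and nucleic acid group (0.21). EAE GFP-negative library 1 was low for several roles. Glycan hydrolases gave 6.04, 6.89 and 6.81 in GFP-negative against 6.90, 7.06 and 6.99 in GFP-positive libraries, so the groups were barely separate. Membrane proteins gave 7.68, 8.08 and 8.21 against 8.35, 8.27 and 8.46, and the pump 7.07, 7.40 and 7.28 against 7.50, 7.54 and 7.54. Membrane proteins rose likewise in P6 stroke (0.27) and glycan hydrolases in P28 stroke (0.18). After rescaling every role was higher without overlap in cuprizone, 5xFAD and P28 stroke.

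Single members moved in both directions between GFP-positive and GFP-negative cells. In cuprizone 6 members rose and 5 fell, where 2.7% of all genes tested rose and 7.49% fell. In glioma 3 rose and 1 fell (0.927% and 5.75% of all genes), and in EAE 1 rose and 1 fell (0.252% and 0.437%). Without EAE GFP-negative library 1, 4 rose and 1 fell, and with any other EAE GFP-positive or GFP-negative library left out 1 rose and 0 fell. In 5xFAD 8 rose and 4 fell (1.02% and 7.14%). P6 stroke had 4 that rose and 0 that fell (1.03% and 2.33%), and P28 stroke had 13 and 9 (5.86% and 23.2%). With a replicate block the glioma count was larger, as given in the closing section. Single libraries moved the other counts too. The shares of all genes called in such refits are not given here or below. The counts with a library left out therefore show how far the calls rest on single libraries. They do not show a change particular to the members. In P6 stroke 8 rose and 4 fell without GFP-positive library 1, and 1 rose and 0 fell without GFP-positive library 3. In glioma the called members numbered 0 without GFP-negative library 2 or GFP-positive library 2, 1 when GFP-negative library 1 was left out and 2 when GFP-negative library 4, GFP-positive library 3 or GFP-positive library 4 was. Cuprizone had 7 without GFP-negative library 3 or GFP-positive library 3, and 5xFAD had 7 or 5 when the first or the fourth GFP-negative library was left out. In P6 stroke the count of falls was 0 by limma at the adjusted threshold, and 4 members were lower at an unadjusted p below 0.05. In either direction 18 members were below that unadjusted p, as were 2897 of the 13136 genes tested. The share that rose was above the share of all genes in every model. The share that fell was above it in cuprizone, EAE and 5xFAD and near it or below it elsewhere. Those higher shares rested on only 5, 1 and 4 members, and whether they exceeded the share of all genes beyond chance was not tested. The EAE fall was Lgmn alone, and its call ended when any 1 of 5 libraries was left out. Because the members were chosen with earlier results of these data known, these shares are a description and not independent support.

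The median difference over the 40 genes was 0.11 in cuprizone, 0.13 in glioma, 0.24 in EAE, 0.01 in 5xFAD, 0.07 in P6 stroke and 0.11 in P28 stroke. Each lay above the median of all genes given earlier. After rescaling, the split of rises and falls, with the shares of all genes tested that rose and fell on that scale in parentheses, became 18 and 1 (4.22% and 1.91%) in cuprizone, 8 and 0 (2.3% and 2.96%) in glioma, 2 and 0 (0.283% and 0.298%) in EAE, 15 and 3 (3.28% and 1.93%) in 5xFAD, 7 and 0 (1.74% and 1.1%) in P6 stroke, and 24 and 0 (9.97% and 5.7%) in P28 stroke. Every rise called on the deposited scale was also called after rescaling. Of the falls, those of Lgmn in cuprizone and of Sgsh, Lgmn and Pld4 in 5xFAD remained called.

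**Figure D2:**
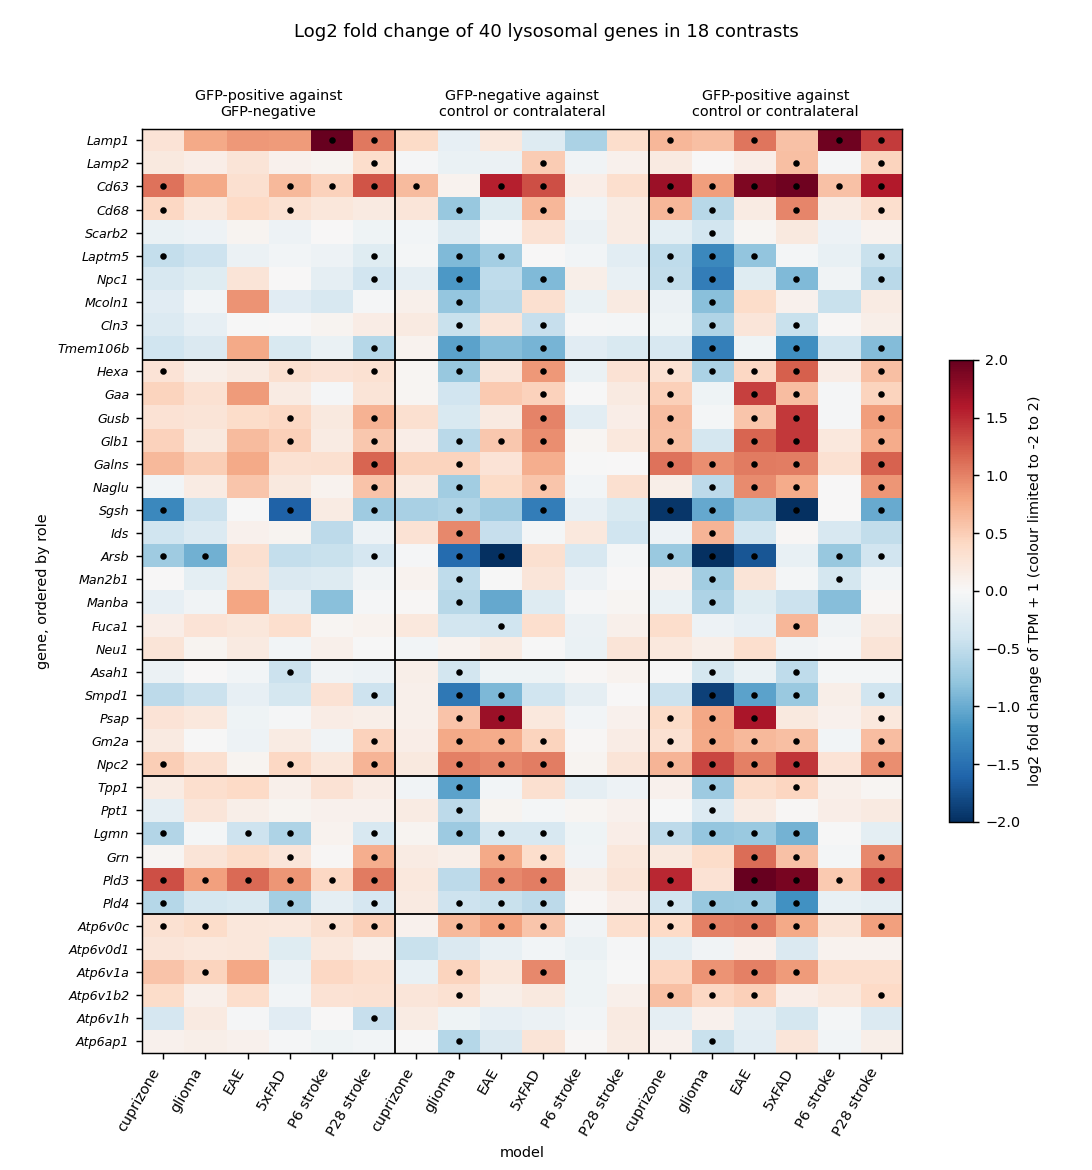
Log2 difference of each of the 40 genes (rows, by role) in 18 contrasts (columns), on the deposited scale, with the colour limited to -2 to 2 and a black dot where the gene was called. Pld3 carries a dot in all 6 GFP-positive against GFP-negative columns; P6 stroke and P28 stroke GFP-negative against contralateral columns carry none.

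**Figure D3:**
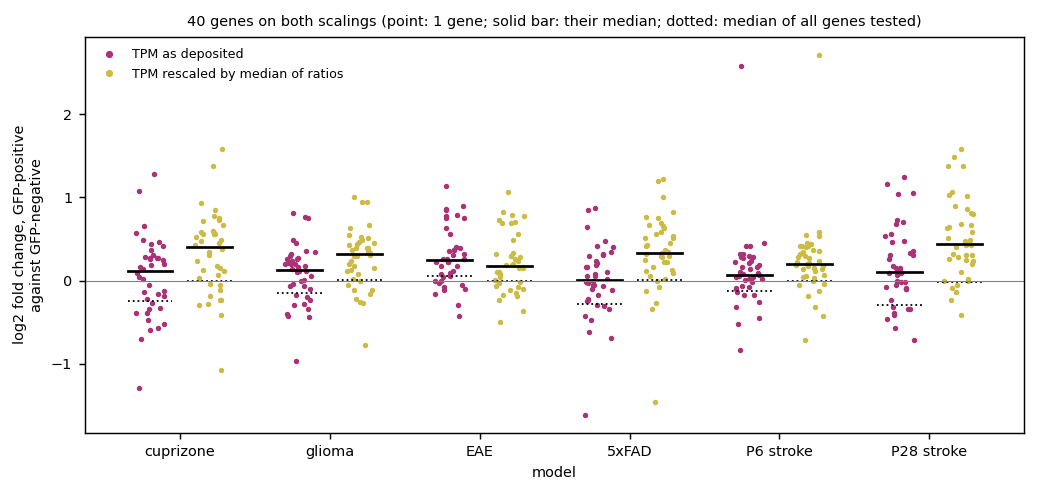
Log2 difference of the 40 genes, GFP-positive minus GFP-negative, in each model on the deposited scale and after median-of-ratios rescaling (points are genes, the solid bar their median and the dotted bar the median of all genes tested). In P28 stroke the members' median was 0.11 with all genes at -0.30 on the deposited scale.

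Members with fewer exonic bases, merged over all annotated exons of the gene, tended to have the higher differences in every model except EAE. Across the 40 genes, which are not independent replicates, Spearman's rho of the GFP-positive minus GFP-negative difference with exonic length was -0.30 in cuprizone, -0.35 in glioma, 0.08 in EAE, -0.33 in 5xFAD, -0.48 in P6 stroke and -0.34 in P28 stroke. Over all genes with a length it lay between -0.16 and 0.21. The part of exonic length in the calls was not tested.

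Pld3 was the only member called higher in GFP-positive than in GFP-negative cells in all 6 models, under both scalings. It encodes a phospholipase D family protein that degrades single-stranded DNA in the lysosome, and lies at chr7:27532000-27553218 on the minus strand (GRCm38, GENCODE M21). Cuprizone Pld3 levels were 548, 633 and 651 TPM in GFP-positive, 251, 264 and 234 in GFP-negative and 172, 221, 246 and 225 in control libraries. Glioma Pld3 levels were 271, 269, 163 and 236 TPM in GFP-positive, 134, 156, 80.4 and 172 in GFP-negative and 170.02, 186, 213 and 185 in control libraries. EAE Pld3 levels were 872, 875 and 921 TPM in GFP-positive, 411, 358 and 452 in GFP-negative and 214, 189.8 and 223 in control libraries. Every GFP-positive library exceeded every GFP-negative library in cuprizone and EAE, while in glioma the groups overlapped. 5xFAD Pld3 levels were 823, 869.9, 769 and 885 TPM in GFP-positive, 421, 468, 465 and 468 in GFP-negative and 227, 252, 216 and 199 in control libraries. P6 stroke Pld3 levels were 371, 351, 446 and 406 TPM in GFP-positive, 297, 284, 294 and 299.8 in GFP-negative and 269, 278, 281 and 260.3 in contralateral libraries. P28 stroke Pld3 levels were 456, 431, 503 and 424 TPM in GFP-positive, 242, 214, 220.5 and 202 in GFP-negative and 169.97, 165, 198 and 205 in contralateral libraries. The groups were separate in these 3 models too. The log2 difference was 1.29 (SE 0.13, adjusted p = 4.98e-05) in cuprizone, 0.81 (SE 0.22, adjusted p = 0.0437) in glioma and 1.13 (SE 0.11, adjusted p = 0.00169) in EAE. It was 0.88 (SE 0.09, adjusted p = 4.48e-05) in 5xFAD, 0.42 (SE 0.08, adjusted p = 0.018) in P6 stroke and 1.04 (SE 0.09, adjusted p = 1.41e-05) in P28 stroke. The glioma call ended without GFP-negative libraries 1, 2 or 3 or GFP-positive libraries 1, 2 or 4 (log2 difference 0.58 to 0.90, adjusted p = 0.0612 to 0.113), and the P6 stroke call ended without GFP-positive library 3 (log2 difference 0.35, adjusted p = 0.065). GFP-negative cells also exceeded their controls in EAE, by 0.95 (SE 0.11, adjusted p = 0.000251), and in 5xFAD, by 1.03 (SE 0.09, adjusted p = 4.53e-06), so Pld3 rose stepwise from control through GFP-negative to GFP-positive cells in those models, with no overlap between neighbouring groups.

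Pld4, its close relative with the same nuclease activity, went the other way on the deposited scale. 5xFAD Pld4 levels were 742, 753, 742 and 688 TPM in GFP-positive, 1245, 1002, 1229 and 1252 in GFP-negative and 1671, 1804, 1516 and 1764 in control libraries. The GFP-positive libraries lay below the GFP-negative libraries, and these below the controls, with differences of -0.69 (SE 0.09, adjusted p = 0.000178) and -0.52 (SE 0.09, adjusted p = 0.00143). Pld4 also fell between GFP-positive and GFP-negative cells in cuprizone, at -0.57 on the log2 scale, and in P28 stroke, at -0.34. After rescaling the 5xFAD fall remained called at -0.34 (adjusted p = 0.04), while cuprizone gave -0.28 (adjusted p = 0.0574) and P28 stroke -0.00 (adjusted p = 0.991).

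Lgmn, which cleaves proteins after asparagine and also processes cathepsins, was called lower in GFP-positive cells in 4 models. The gene lies at chr12:102394084-102439813 on the minus strand. Cuprizone Lgmn levels were 3695, 3397 and 2985 TPM in GFP-positive, 5321, 5108 and 4706 in GFP-negative and 4535, 4952, 4919 and 4939 in control libraries. EAE Lgmn levels were 3589, 3789 and 3552 TPM in GFP-positive, 5153, 4912 and 4588 in GFP-negative and 6349, 5896 and 6017 in control libraries. 5xFAD Lgmn levels were 2896, 2590.4, 2773 and 2965 TPM in GFP-positive, 4409.8, 3961, 4027 and 4932 in GFP-negative and 5522, 5559, 5172 and 5396 in control libraries. The GFP-positive libraries lay below the GFP-negative libraries without overlap in each, at -0.59 (SE 0.08, adjusted p = 0.000391), -0.42 (SE 0.07, adjusted p = 0.0315) and -0.62 (SE 0.07, adjusted p = 0.000101) on the log2 scale. P28 stroke Lgmn levels were 4109, 4115, 4042 and 4656 TPM in GFP-positive, 5902, 5091, 4698 and 5387 in GFP-negative and 4935, 4558, 4707 and 5063 in contralateral libraries, a log2 difference of -0.31 (SE 0.08, adjusted p = 0.00905) with separate groups and 1 GFP-positive library well above the other 3. Glioma Lgmn levels were 3785, 3067, 2379 and 2755 TPM in GFP-positive, 3663, 3723, 2116 and 2942 in GFP-negative and 4869.8, 5126, 5205 and 4899.97 in control libraries. P6 stroke Lgmn levels were 6786, 7276, 7133 and 8046 TPM in GFP-positive, 7049, 6769, 6759.97 and 7097 in GFP-negative and 7518, 7489, 7110.3 and 7251 in contralateral libraries. In glioma both GFP groups lay below the controls and did not differ by call from each other, at -0.04 (SE 0.18, adjusted p = 0.921), and in P6 stroke the difference was 0.08 (SE 0.06, adjusted p = 0.448). After rescaling Lgmn remained called lower in cuprizone at -0.30 and in 5xFAD at -0.27, whereas EAE gave -0.49 (adjusted p = 0.318) and P28 stroke and glioma turned to 0.02 and 0.15. The EAE call of Lgmn also ended without GFP-negative libraries 2 or 3 or GFP-positive libraries 1, 2 or 3 (log2 difference -0.47 to -0.40, adjusted p = 0.0519 to 0.177). Grn, which encodes progranulin, the precursor of the granulins, rose in GFP-positive cells in 5xFAD by 0.24 (SE 0.06, adjusted p = 0.0343) and in P28 stroke by 0.73 (SE 0.09, adjusted p = 9.4e-05). Tpp1, a tripeptidyl peptidase, and Ppt1, a thioesterase that removes palmitate from proteins, were called in no GFP-positive against GFP-negative contrast on the deposited scale.

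**Figure D4:**
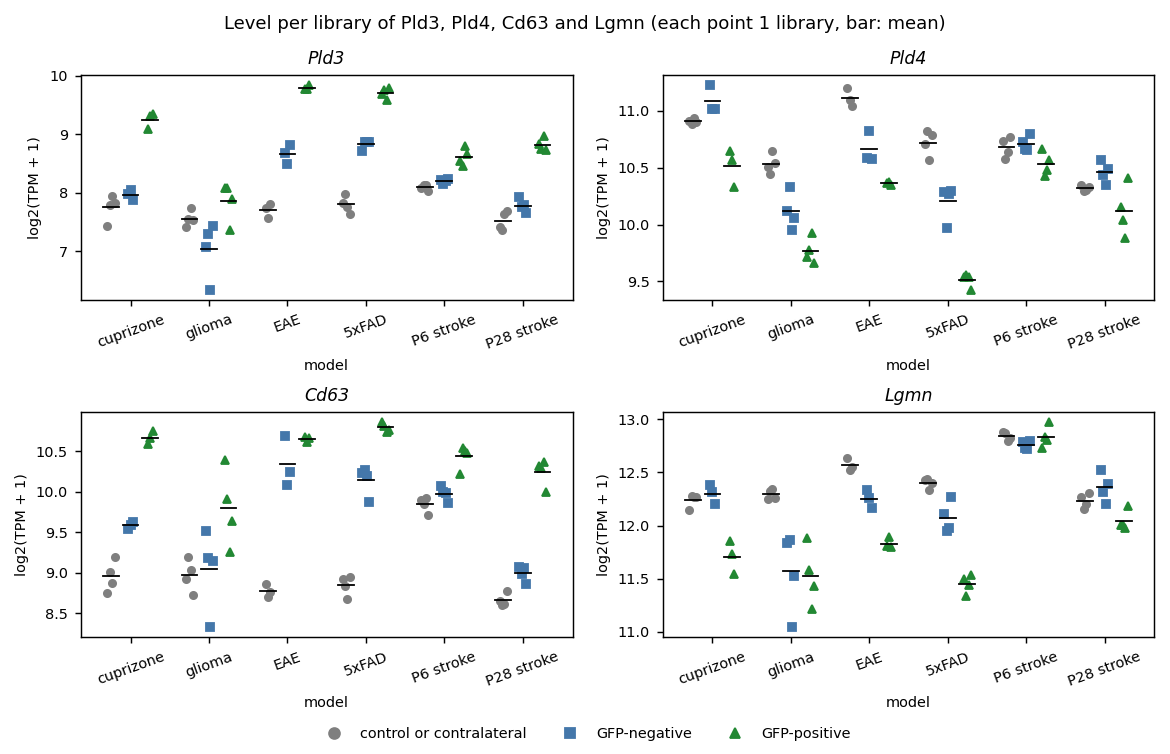
Log2(TPM + 1) of Pld3, Pld4, Cd63 and Lgmn in every library of the 6 models (grey circles control or contralateral, blue squares GFP-negative, green triangles GFP-positive; the bar is the group mean). Pld3 is highest in the GFP-positive group of every model by its mean, while Lgmn is lower there in cuprizone, EAE, 5xFAD and P28 stroke.

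Among membrane proteins Cd63, a tetraspanin of late endosomes and exosomes, had the most frequent rises. It lies at chr10:128900989-128912822 on the plus strand. Cuprizone Cd63 levels were 1542, 1613 and 1723 TPM in GFP-positive, 745, 771 and 788 in GFP-negative and 431, 516, 467 and 587 in control libraries. 5xFAD Cd63 levels were 1856, 1793, 1703 and 1736 TPM in GFP-positive, 1196, 1233, 1166 and 939.8 in GFP-negative and 483, 457, 409 and 493 in control libraries. P6 stroke Cd63 levels were 1188, 1487, 1449 and 1427 TPM in GFP-positive, 1073, 1021, 1011 and 925 in GFP-negative and 952, 920.3, 967 and 841 in contralateral libraries. In each of these the GFP-positive libraries exceeded all others, with log2 differences from GFP-negative libraries of 1.08 (SE 0.10, adjusted p = 3.25e-05), 0.65 (SE 0.09, adjusted p = 0.000482) and 0.46 (SE 0.08, adjusted p = 0.0163). P28 stroke Cd63 levels were 1278, 1257, 1319 and 1021 TPM in GFP-positive, 537, 508, 531 and 464 in GFP-negative and 402, 388, 392 and 437 in contralateral libraries. EAE Cd63 levels were 1629, 1569 and 1615 TPM in GFP-positive, 1640.2, 1079 and 1214 in GFP-negative and 466, 417 and 433 in control libraries. Glioma Cd63 levels were 1336, 962, 612 and 798 TPM in GFP-positive, 731, 578, 322 and 564 in GFP-negative and 484, 587, 523 and 421 in control libraries. P28 stroke gave the largest difference of the 6, 1.25 (SE 0.09, adjusted p = 4.83e-06), whereas the GFP groups overlapped in EAE, at 0.31 (SE 0.14, adjusted p = 0.436), and in glioma, at 0.76 (SE 0.25, adjusted p = 0.0941). In EAE the step lay between control and GFP-negative cells, at 1.56 (SE 0.14, adjusted p = 3.32e-05). Cd63 was also the single member called in GFP-negative cuprizone cells against controls, at 0.63 (SE 0.10, adjusted p = 0.0234). The P6 stroke call ended without GFP-positive library 3 (log2 difference 0.44, adjusted p = 0.065), and the cuprizone GFP-negative call against controls without control libraries 2 or 3 or GFP-negative libraries 1, 2 or 3 (log2 difference 0.60 to 0.65, adjusted p = 0.0507 to 0.141). Rescaling kept the called rises and added the glioma call at 0.95 (adjusted p = 0.0421).

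Lamp1, a chief glycoprotein of the lysosomal membrane, had the smallest adjusted p of the members when the GFP difference was compared between models. The gene lies at chr8:13159161-13175338 on the plus strand. P6 stroke Lamp1 levels were 946, 1692, 1947 and 1216 TPM in GFP-positive, 212, 318, 226 and 190.1 in GFP-negative and 289, 221, 624 and 421 in contralateral libraries. P28 stroke Lamp1 levels were 409.5, 278, 492 and 452 TPM in GFP-positive, 162, 216, 201 and 194 in GFP-negative and 129, 163, 154 and 159 in contralateral libraries. GFP-positive libraries exceeded both other groups without overlap in both strokes, with log2 differences from GFP-negative libraries of 2.58 (SE 0.29, adjusted p = 0.00328) and 1.05 (SE 0.15, adjusted p = 0.000343). The first of these is the largest GFP difference of any member in any model. Cuprizone Lamp1 levels were 229.8, 212 and 217 TPM in GFP-positive, 185, 202 and 159 in GFP-negative and 123, 164, 131 and 139.7 in control libraries. Glioma Lamp1 levels were 344, 379, 217 and 209 TPM in GFP-positive, 159, 177, 115 and 218 in GFP-negative and 138, 124, 329 and 198 in control libraries. EAE Lamp1 levels were 417, 213 and 533 TPM in GFP-positive, 159, 171 and 287 in GFP-negative and 152, 148 and 226 in control libraries. Single libraries ranged widely within the glioma and EAE groups, and none of the 3 GFP contrasts was called (0.28 (SE 0.13, adjusted p = 0.215), 0.76 (SE 0.30, adjusted p = 0.156) and 0.86 (SE 0.33, adjusted p = 0.373)). 5xFAD Lamp1 levels were 135, 233, 255 and 106 TPM in GFP-positive, 71.8, 170.4, 85.1 and 75.6 in GFP-negative and 126, 85.3, 129 and 118 in control libraries, a difference of 0.85 (SE 0.29, adjusted p = 0.0893) between overlapping groups. Rescaling added the cuprizone call at 0.57 (adjusted p = 0.0209) and the 5xFAD call at 1.20 (adjusted p = 0.0274). Lamp2, the related glycoprotein that also serves chaperone-mediated autophagy, was called higher by GFP on the deposited scale in P28 stroke (0.35 (SE 0.07, adjusted p = 0.00252)) and in no other model. The exons of Lamp1 share 9.31% of their bases with Grtp1, which reached at most 8.14 TPM in any library.

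Cd68, the macrosialin used as a marker of phagocytic macrophages, rose in GFP-positive against GFP-negative cells in cuprizone by 0.42 (SE 0.07, adjusted p = 0.00175) and in 5xFAD by 0.31 (SE 0.08, adjusted p = 0.0202). Laptm5 fell in cuprizone at -0.47 and in P28 stroke at -0.24 on the log2 scale, with neither call kept after rescaling. Npc1, the cholesterol transporter of the limiting membrane, fell in P28 stroke at -0.38. P28 stroke Tmem106b levels were 37.4, 30.5, 35.7 and 51.5 TPM in GFP-positive, 63.4, 37.6, 69.2 and 62.99 in GFP-negative and 76.6, 65.5, 64.8 and 74.6 in contralateral libraries. This gene, a membrane protein of lysosomal trafficking, fell there at -0.56 (SE 0.19, adjusted p = 0.0368) between groups that overlapped, and after rescaling Npc1 and Tmem106b gave -0.05 and -0.24, neither called. The Tmem106b call also ended without GFP-negative libraries 1, 3 or 4 or GFP-positive libraries 1, 2 or 3 (log2 difference -0.56 to -0.46, adjusted p = 0.0757 to 0.11). Scarb2, the receptor that carries glucocerebrosidase to lysosomes, Mcoln1, the calcium channel TRPML1, and Cln3, a membrane protein lost in a juvenile storage disease, were called in no GFP-positive against GFP-negative contrast on the deposited scale.

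Among the glycan hydrolases, Hexa, the alpha subunit of beta-hexosaminidase, and Gusb, beta-glucuronidase, were called higher in GFP-positive than in GFP-negative 5xFAD cells, by 0.32 (SE 0.08, adjusted p = 0.0246) and 0.42 (SE 0.12, adjusted p = 0.045), and in P28 stroke, by 0.31 (SE 0.09, adjusted p = 0.0188) and 0.70 (SE 0.09, adjusted p = 0.000158). Hexa was also called in cuprizone at 0.27 (SE 0.07, adjusted p = 0.0214). 5xFAD Glb1 levels were 229, 218, 207 and 201 TPM in GFP-positive, 149, 166, 169 and 131 in GFP-negative and 90.2, 66.7, 85.2 and 78.2 in control libraries. Glb1, the beta-galactosidase of senescence assays, thus rose from control through GFP-negative to GFP-positive cells without overlap, the last step being 0.48 (SE 0.13, adjusted p = 0.0317), and it rose in P28 stroke by 0.54 (SE 0.10, adjusted p = 0.0012). The 5xFAD call ended without GFP-negative libraries 1, 2 or 4 or GFP-positive libraries 1, 2, 3 or 4 (log2 difference 0.40 to 0.52, adjusted p = 0.0514 to 0.107). P28 stroke Galns levels were 29.7, 37.4, 36.9 and 26.00 TPM in GFP-positive, 17.4, 10.4, 15.6 and 12.6 in GFP-negative and 16.6, 13.3, 10.9 and 14.2 in contralateral libraries. Galns, a sulphatase of keratan sulphate and chondroitin sulphate, rose there by 1.17 (SE 0.18, adjusted p = 0.000531) with separate groups. Naglu, which removes N-acetylglucosamine from heparan sulphate, rose in P28 stroke by 0.56 (SE 0.10, adjusted p = 0.00101).

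Sgsh and Arsb were the hydrolases with the deepest called falls. Cuprizone Sgsh levels were 2.57, 2.82 and 1.35 TPM in GFP-positive, 5.19, 8.46 and 7.05 in GFP-negative and 11.53, 8.42, 11.9 and 13.4 in control libraries. 5xFAD Sgsh levels were 0.170, 0.390, 1.09 and 1.24 TPM in GFP-positive, 4.23, 2.40, 5.03 and 5.17 in GFP-negative and 19.4, 9.75, 10.6 and 11.3 in control libraries. P28 stroke Sgsh levels were 6.69, 6.84, 5.60 and 8.19 TPM in GFP-positive, 11.6, 10.9, 11.8 and 12.7 in GFP-negative and 11.54, 17.2, 13.8 and 16.8 in contralateral libraries. GFP-positive libraries lay below GFP-negative libraries in all 3, with differences of -1.29 (SE 0.34, adjusted p = 0.03), -1.61 (SE 0.38, adjusted p = 0.0156) and -0.71 (SE 0.17, adjusted p = 0.00685), and in 5xFAD all GFP-negative libraries lay below the controls as well. Glioma Sgsh levels were 5.33, 5.57, 4.75 and 6.25 TPM in GFP-positive, 5.53, 10.7, 7.39 and 7.86 in GFP-negative and 10.7, 12.1, 14.2 and 11.9 in control libraries. EAE Sgsh levels were 6.02, 7.76 and 10.7 TPM in GFP-positive, 5.01, 10.1 and 9.84 in GFP-negative and 16.9, 12.3 and 12.4 in control libraries. P6 stroke Sgsh levels were 9.66, 7.93, 10.5 and 10.02 TPM in GFP-positive, 7.11, 6.43, 9.61 and 10.8 in GFP-negative and 8.73, 7.71, 9.82 and 12.2 in contralateral libraries. In these the GFP groups overlapped, with differences of -0.43, -0.00 and 0.17, none called. After rescaling the 5xFAD fall remained called at -1.45 (adjusted p = 0.0383), while cuprizone gave -1.08 (adjusted p = 0.0819) and P28 stroke -0.41 (adjusted p = 0.105). The cuprizone call ended without GFP-negative libraries 2 or 3 or GFP-positive libraries 1 or 3 (log2 difference -1.38 to -1.08, adjusted p = 0.0533 to 0.115), and the 5xFAD call without GFP-negative libraries 3 or 4 (log2 difference -1.53 to -1.52, adjusted p = 0.0565 to 0.0591). At these low levels the pseudocount shrinks differences. The exons of Sgsh share 21.6% of their bases with Card14 on the opposite strand, and the library method does not mark strand, but Card14 reached no more than 0.29 TPM in any library.

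Arsb, the arylsulphatase of dermatan sulphate, was called lower in GFP-positive than in GFP-negative cells in cuprizone, glioma and P28 stroke. Cuprizone Arsb levels were 61.5, 67.5 and 44.3 TPM in GFP-positive, 88.1, 96.3 and 95.7 in GFP-negative and 91.5, 104, 103 and 84.9 in control libraries. Glioma Arsb levels were 57.7, 44.1, 28.9 and 35.4 TPM in GFP-positive, 92.8, 111, 48.5 and 79.7 in GFP-negative and 232, 183, 272 and 253 in control libraries. The groups were separate in cuprizone (-0.70 (SE 0.17, adjusted p = 0.017)) and overlapped in glioma (-0.96 (SE 0.25, adjusted p = 0.0374)), and P28 stroke gave -0.34 (SE 0.09, adjusted p = 0.0149); after rescaling the differences were -0.41, -0.78 and -0.00, none called. The cuprizone call also ended without GFP-negative libraries 2 or 3 or GFP-positive library 3 (log2 difference -0.69 to -0.53, adjusted p = 0.054 to 0.0613), and the glioma call without GFP-negative libraries 1, 2 or 4 or GFP-positive libraries 2, 3 or 4 (log2 difference -1.01 to -0.81, adjusted p = 0.0672 to 0.123). In EAE the fall lay between controls and both GFP groups. EAE Arsb levels were 103, 132 and 116 TPM in GFP-positive, 37.9, 168 and 123 in GFP-negative and 408, 377 and 359.7 in control libraries. Both GFP groups lay below all controls there, at -2.03 (SE 0.42, adjusted p = 0.00692) and -1.70 (SE 0.42, adjusted p = 0.0127), and these calls held after rescaling at -1.49 and -1.23, although the second ended without GFP-positive library 1 (log2 difference -1.61, adjusted p = 0.0514). P6 stroke Arsb levels were 506, 419, 394 and 302 TPM in GFP-positive, 584, 478, 519.99 and 606 in GFP-negative and 730.1, 693, 618 and 673 in contralateral libraries, with a fall from contralateral to GFP-positive cells of -0.76 (SE 0.13, adjusted p = 0.012) that rescaling kept at -0.57 and that ended without contralateral library 1 (log2 difference -0.73, adjusted p = 0.0534). About 32.3% of Arsb's exonic bases overlap the non-coding RNA gene Gm26527 on the opposite strand, so the reads behind its level cannot all be assigned to Arsb. P6 stroke Man2b1 levels were 758, 675, 711 and 635 TPM in GFP-positive, 845, 775, 785 and 911 in GFP-negative and 902, 877, 844 and 913 in contralateral libraries. Man2b1, the lysosomal alpha-mannosidase, fell from contralateral to GFP-positive cells at -0.35 (SE 0.07, adjusted p = 0.027), a call that ended after rescaling and without contralateral libraries 1, 2 or 4 or GFP-positive libraries 2, 3 or 4 (log2 difference -0.36 to -0.31, adjusted p = 0.0541 to 0.083).

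**Figure D5:**
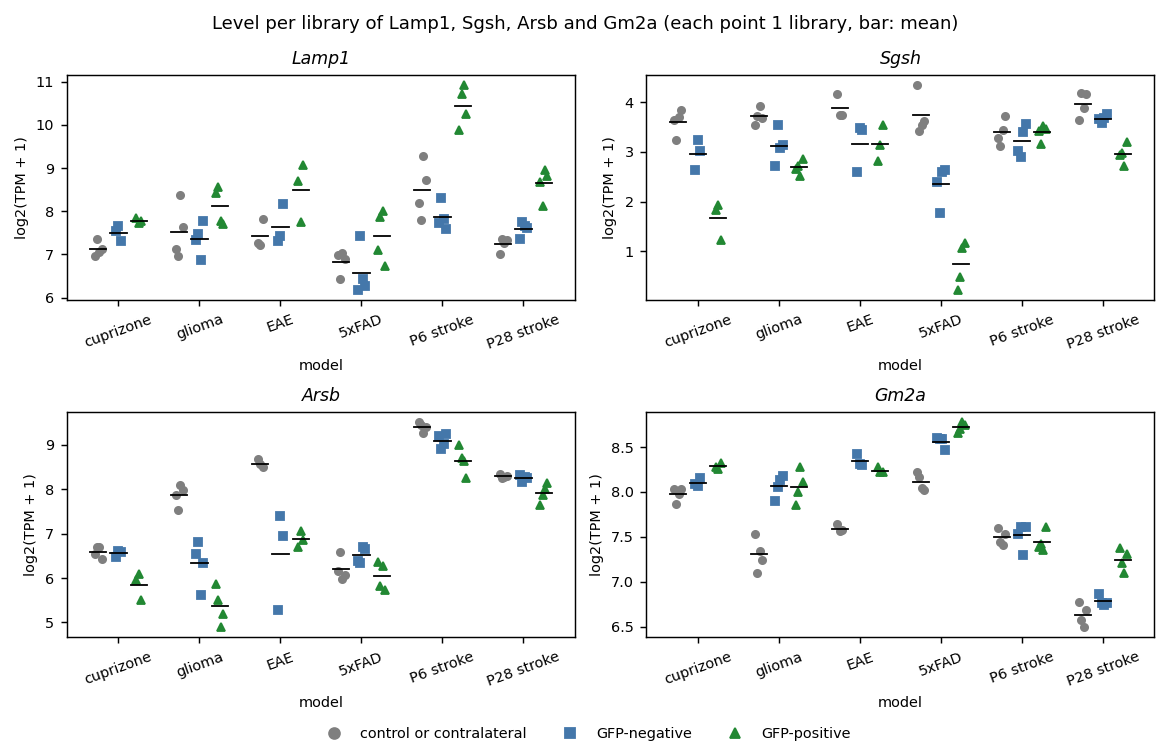
Log2(TPM + 1) of Lamp1, Sgsh, Arsb and Gm2a in every library of the 6 models (symbols and bars as in the plot of Pld3 and Cd63). Lamp1 in P6 stroke GFP-positive libraries stands clear of both other groups, and Sgsh in 5xFAD steps down from control to GFP-negative to GFP-positive.

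Of the lipid genes Npc2, the soluble cholesterol carrier that hands its cargo to NPC1, rose most often. Cuprizone Npc2 levels were 701, 683 and 732 TPM in GFP-positive, 526, 507 and 476 in GFP-negative and 446, 461, 410.3 and 448 in control libraries. 5xFAD Npc2 levels were 1027, 992, 973 and 919 TPM in GFP-positive, 774, 764, 775 and 643 in GFP-negative and 394, 342, 335 and 382 in control libraries. GFP-positive libraries exceeded all GFP-negative libraries, by 0.49 (SE 0.08, adjusted p = 0.0024) and 0.41 (SE 0.09, adjusted p = 0.011), and P28 stroke showed the same direction at 0.68 (SE 0.08, adjusted p = 8.19e-05). Glioma Npc2 levels were 741, 752, 817 and 716 TPM in GFP-positive, 569.9, 522, 768 and 578 in GFP-negative and 316, 311, 279.6 and 287 in control libraries. EAE Npc2 levels were 636, 634 and 602 TPM in GFP-positive, 683, 551 and 585 in GFP-negative and 298, 318 and 311 in control libraries. Here the step was from controls to GFP-negative cells, 1.01 (SE 0.11, adjusted p = 1.59e-05) in glioma and 0.96 (SE 0.10, adjusted p = 0.000114) in EAE, and the GFP groups overlapped.

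Gm2a, the activator protein that presents GM2 ganglioside to hexosaminidase A, differed by model. Cuprizone Gm2a levels were 310.2, 304 and 319.8 TPM in GFP-positive, 271, 266 and 284 in GFP-negative and 261, 232, 250.5 and 261 in control libraries. EAE Gm2a levels were 309, 296 and 297 TPM in GFP-positive, 341, 315 and 314 in GFP-negative and 198, 188 and 189.6 in control libraries. 5xFAD Gm2a levels were 403, 416, 438 and 429 TPM in GFP-positive, 386, 385, 383 and 352 in GFP-negative and 296, 287, 263 and 259.7 in control libraries. GFP-positive libraries lay above GFP-negative libraries in cuprizone and 5xFAD and below them in EAE, by 0.18, 0.16 and -0.10 with separate groups but no call. P28 stroke Gm2a levels were 165, 147, 136 and 158 TPM in GFP-positive, 116, 107, 106 and 108 in GFP-negative and 108, 94.4, 89.5 and 102 in contralateral libraries. The P28 stroke difference was called at 0.46 (SE 0.09, adjusted p = 0.00176). Glioma Gm2a levels were 231, 255, 309.6 and 275 TPM in GFP-positive, 238, 266, 281 and 289 in GFP-negative and 185, 136, 161 and 150.04 in control libraries. P6 stroke Gm2a levels were 166, 169.99, 162 and 194 TPM in GFP-positive, 185, 195, 157 and 195 in GFP-negative and 192, 173, 169.6 and 184 in contralateral libraries. In glioma both GFP groups exceeded the controls and overlapped each other, and in P6 stroke all groups overlapped.

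Smpd1, acid sphingomyelinase, fell in GFP-positive against GFP-negative P28 stroke cells at -0.41 (SE 0.11, adjusted p = 0.012) and Asah1, acid ceramidase, in 5xFAD at -0.42 (SE 0.10, adjusted p = 0.0182); after rescaling these were -0.09 and -0.07, not called. Psap, the precursor of the saposins that assist sphingolipid hydrolases, was called in no GFP-positive against GFP-negative contrast on the deposited scale.

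Atp6v0c, the proton-carrying ring subunit of the pump's membrane sector, was called higher in GFP-positive cells in 4 models. Cuprizone Atp6v0c levels were 1214, 1197 and 1272 TPM in GFP-positive, 1009.99, 1034 and 935 in GFP-negative and 932, 893, 919 and 986 in control libraries. Glioma Atp6v0c levels were 1747, 1806, 1666 and 1634 TPM in GFP-positive, 1369, 1218, 1437 and 1320.1 in GFP-negative and 879, 874, 831 and 833 in control libraries. P6 stroke Atp6v0c levels were 1267, 1401, 1558 and 1519 TPM in GFP-positive, 1134, 1159, 1207 and 1073 in GFP-negative and 1244, 1209, 1286 and 1055 in contralateral libraries. GFP-positive libraries exceeded GFP-negative libraries without overlap in each, by 0.31 (SE 0.07, adjusted p = 0.0174), 0.36 (SE 0.08, adjusted p = 0.0197) and 0.33 (SE 0.08, adjusted p = 0.0458). P28 stroke Atp6v0c levels were 1036, 971, 990.2 and 919 TPM in GFP-positive, 832, 649, 667 and 669.7 in GFP-negative and 553, 528, 526 and 623 in contralateral libraries. 5xFAD Atp6v0c levels were 1616, 1794, 1724 and 1699 TPM in GFP-positive, 1543, 1512, 1409.8 and 1455 in GFP-negative and 1227, 935, 950.1 and 949 in control libraries. EAE Atp6v0c levels were 1679.8, 1799.6 and 1801 TPM in GFP-positive, 1722, 1430.4 and 1369 in GFP-negative and 941, 821 and 819 in control libraries. P28 stroke gave 0.48 (SE 0.09, adjusted p = 0.00133), 5xFAD gave separate groups without a call (0.21 (SE 0.09, adjusted p = 0.17)) and EAE overlapped (0.23 (SE 0.10, adjusted p = 0.464)). The cuprizone call ended without GFP-negative library 3 or GFP-positive library 3 (log2 difference 0.26 to 0.28, adjusted p = 0.0566 to 0.0727), the glioma call without GFP-negative libraries 2 or 4 or GFP-positive library 2 (log2 difference 0.32 to 0.35, adjusted p = 0.0511 to 0.0606) and the P6 stroke call without GFP-negative libraries 1, 2, 3 or 4 or GFP-positive libraries 2, 3 or 4 (log2 difference 0.29 to 0.35, adjusted p = 0.0731 to 0.136). The pseudogene Atp6v0c-ps2 reached up to 16.2 TPM, so reads may be divided between the copies.

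Glioma Atp6v1a levels were 79.01, 87.8, 83.4 and 76.3 TPM in GFP-positive, 59.5, 52.6, 63.5 and 62.7 in GFP-negative and 46.8, 37.7, 45.95 and 43.6 in control libraries. Atp6v1a, the catalytic subunit that hydrolyses ATP, rose from GFP-negative to GFP-positive glioma cells by 0.45 (SE 0.11, adjusted p = 0.0264) with separate groups, a call that ended without GFP-negative libraries 1 or 2 or GFP-positive libraries 2 or 3 (log2 difference 0.39 to 0.45, adjusted p = 0.0539 to 0.0804). P28 stroke Atp6v1h levels were 27.9, 30.8, 29.7 and 30.4 TPM in GFP-positive, 41.7, 46.2, 35.01 and 42.4 in GFP-negative and 37.04, 28.6, 35.5 and 45.1 in contralateral libraries. Atp6v1h, a regulatory subunit of the ATP-hydrolysing sector, fell there at -0.46 (SE 0.14, adjusted p = 0.0224), which became -0.13 (adjusted p = 0.604) after rescaling and was lost without GFP-negative libraries 2 or 4 or GFP-positive library 1 (log2 difference -0.44 to -0.40, adjusted p = 0.0535 to 0.0631). Atp6v0d1, which links the 2 sectors, was called in none of the 18 contrasts on the deposited scale, and the same held for Neu1, the sialidase, among the hydrolases. Atp6v0d1 differences between GFP groups ran from -0.25 in 5xFAD to 0.24 in cuprizone, and those of Neu1 from -0.06 in 5xFAD to 0.26 in cuprizone.

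Against their reference groups, the members moved in different numbers in each model. In cuprizone GFP-negative cells only Cd63 was called (1 up and 0 down, with 0.148% and 0.0155% of all genes and 1 member lower at an unadjusted p below 0.05). In either direction 8 members were below that unadjusted p there, as were 1020 of the 12877 genes tested. Cuprizone GFP-positive cells had 14 up and 6 down (4.5% and 13.7%). Cuprizone Galns levels were 27.4, 31.3 and 29.7 TPM in GFP-positive, 28.2, 14.4 and 15.1 in GFP-negative and 14.3, 10.1, 21.5 and 9.87 in control libraries. Galns was called at 1.09 (SE 0.30, adjusted p = 0.0241) in GFP-positive cells against controls, beside Cd63 at 1.71 and Pld3 at 1.501, with Sgsh lowest at -1.94. The Galns call ended without control libraries 2 or 4 or GFP-positive libraries 1, 2 or 3 (log2 difference 0.96 to 1.14, adjusted p = 0.0574 to 0.0795). The 8 markers of border-associated macrophages summed to 283 to 395 TPM in cuprizone controls, 59.2 to 202 TPM in GFP-negative and 69.96 to 97.7 TPM in GFP-positive libraries, and their part in these contrasts was not tested. The cuprizone controls were of both sexes by sex-linked transcripts and the GFP groups male.

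Glioma had 8 members up and 20 down in GFP-negative cells (16% and 36.8% of all genes) and 9 up and 20 down in GFP-positive cells (17.7% and 45.9%). These were the most member falls of any model, and the shares of all genes that fell were also the largest there. In GFP-positive cells the members' share was near that of all genes. After rescaling the splits were 11 up and 6 down (22.6% and 15.3%), and 21 up and 6 down (28.4% and 23.4%). On that scale the members' falls were near or below the share of all genes. Glioma Smpd1 levels were 22.9, 23.2, 14.2 and 15.1 TPM in GFP-positive, 32.3, 33.7, 17.6 and 20.8 in GFP-negative and 68.2, 65.3, 68.2 and 77.8 in control libraries. Glioma Npc1 levels were 32.2, 31.1, 23.4 and 21.9 TPM in GFP-positive, 30.6, 39.6, 26.3 and 31.6 in GFP-negative and 76.8, 64.1, 75.6 and 71.5 in control libraries. Both GFP groups lay below all controls for each gene, Smpd1 at -1.43 (SE 0.22, adjusted p = 0.000187) in GFP-negative and -1.87 (SE 0.22, adjusted p = 1.1e-05) in GFP-positive cells, and Npc1 at -1.15 and -1.39; all 4 calls held after rescaling. Arsb fell most, at -2.50 (SE 0.25, adjusted p = 2.77e-06) in GFP-positive cells. Glioma Ids levels were 7.20, 5.03, 7.26 and 4.92 TPM in GFP-positive, 8.51, 8.58, 6.41 and 6.76 in GFP-negative and 3.16, 4.06, 3.35 and 2.98 in control libraries. Glioma Galns levels were 36.7, 32.6, 25.5 and 32.2 TPM in GFP-positive, 23.8, 25.1, 20.1 and 20.2 in GFP-negative and 12.9, 16.9, 17.6 and 16.9 in control libraries. Ids rose by 0.96 (SE 0.20, adjusted p = 0.00179) in GFP-negative cells and Galns by 0.94 (SE 0.15, adjusted p = 0.000156) in GFP-positive cells, from low levels. These contrasts moved with the markers of microglia, monocyte-derived cells, border-associated macrophages, dendritic cells, NK cells and T cells given above, and the part of those cells was not tested.

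EAE GFP-negative cells had 8 up and 6 down (5.88% and 24.5% of all genes), or 15 up and 6 down without library 1, and GFP-positive cells had 16 up and 5 down (6.91% and 22.9%). EAE Psap levels were 2707, 4407 and 4669 TPM in GFP-positive, 6261, 2874 and 3665 in GFP-negative and 1413, 1139.5 and 1167 in control libraries. EAE Smpd1 levels were 37.7, 34.5 and 37.8 TPM in GFP-positive, 43.4, 38.3 and 41.9 in GFP-negative and 77.6, 75.2 and 80.05 in control libraries. EAE Laptm5 levels were 2997, 2968 and 2978 TPM in GFP-positive, 2649, 3698 and 3423 in GFP-negative and 5341, 4996 and 5160.4 in control libraries. Psap rose by 1.71 (SE 0.27, adjusted p = 0.00172) in GFP-negative and 1.63 (SE 0.27, adjusted p = 0.0016) in GFP-positive cells, the largest member rise among GFP-negative contrasts, while Smpd1 and Laptm5 fell in both GFP groups, in GFP-positive cells at -1.06 (SE 0.14, adjusted p = 0.000328) and -0.79 (SE 0.11, adjusted p = 0.000529). After rescaling the Psap rises were 2.25 and 2.101, Smpd1 remained called in GFP-positive cells and Laptm5 in neither. The EAE splits became 21up and1 down (9.27% and 4.5%), and 24up and2 down (10.4% and 6.66%).

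5xFAD GFP-negative cells had 14 up and 6 down (3.57% and 9.12% of all genes), and GFP-positive cells 17 up and 8 down (6.11% and 33.9%). Both contrasts share the 4 control libraries. In GFP-positive cells Cd63 rose by 1.94 (SE 0.09, adjusted p = 9.89e-10), Pld3 by 1.90 (SE 0.09, adjusted p = 1.13e-09) and Npc2 by 1.43 (SE 0.09, adjusted p = 1.62e-08), and Sgsh fell by 3.0 (SE 0.38, adjusted p = 1.98e-05), the deepest fall of any member in any contrast. 5xFAD Tmem106b levels were 7.71, 11.3, 17.1 and 20.02 TPM in GFP-positive, 19.4, 15.7, 18.03 and 13.8 in GFP-negative and 45.2, 35.2, 24.5 and 28.2 in control libraries. 5xFAD Npc1 levels were 26.9, 21.1, 27.03 and 21.9 TPM in GFP-positive, 21.3, 30.5, 18.6 and 27.7 in GFP-negative and 47.3, 42.6, 45.1 and 46.4 in control libraries. Both lay below controls in GFP-negative cells, at -0.92 (SE 0.29, adjusted p = 0.0488) and -0.89 (SE 0.20, adjusted p = 0.0082), and rescaling ended both calls. The Tmem106b call ended without control libraries 1, 2 or 4 or GFP-negative libraries 1, 2, 3 or 4 (log2 difference -0.99 to -0.77, adjusted p = 0.0635 to 0.118), and the Sgsh fall in GFP-negative cells without control library 1 or GFP-negative libraries 1, 2 or 3 (log2 difference -1.47 to -1.18, adjusted p = 0.0517 to 0.0912). The splits after rescaling were 23up and0 down (5.65% and 1.65%) for GFP-negative cells, and 28up and3 down (12.4% and 8.33%) for GFP-positive cells. For cuprizone they were 1 and 0 (0.156% and 0.00779%), and 24 and 1 (6.85% and 3.83%).

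After stroke, GFP-negative cells showed no called member against the contralateral cortex. In P6 stroke limma called 0 up and 0 down in GFP-negative cells (0.0914% and 0.183% of all genes). At an unadjusted p below 0.05 there were 3 members, and 1051 of the 13136 genes tested. P28 stroke likewise had 0 and 0 (0.217% and 0.021%), with 10 members, and 1216 of the 14303 genes tested, at an unadjusted p below 0.05. GFP-positive cells of P6 stroke had 3 up and 2 down (0.556% and 2.56%), namely Lamp1 at 1.95 (SE 0.29, adjusted p = 0.00597), Cd63 at 0.59, Pld3 at 0.53, Arsb and Man2b1. Those of P28 stroke had 17 up and 6 down (7.56% and 28.4%), led by Cd63 at 1.58 (SE 0.09, adjusted p = 1.49e-07), Lamp1 at 1.40 and Pld3 at 1.298. P28 stroke Npc1 levels were 57.6, 52.6, 58.9 and 65.8 TPM in GFP-positive, 73.2, 80.2, 81.6 and 72.2 in GFP-negative and 80.2, 87.7, 91.7 and 82.5 in contralateral libraries. Npc1 fell by 0.54 (SE 0.09, adjusted p = 0.000641), beside Sgsh at -1.01 and Tmem106b at -0.86, of which the last 2 remained called after rescaling. The P6 stroke count was 3 without contralateral library 1 and 8 without GFP-positive library 1. The rescaled splits were 5 and 1 (0.833% and 0.275%) in P6 stroke and 29 and 2 (12.9% and 8.63%) in P28 stroke.

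Whether the GFP difference of a gene varied between the 6 models was tested on the deposited scale, in 1 fit over all tables with a variance weight for each. Results of this test after rescaling are not given here. The test called 14 of the 40 members, where 19.6% of the 11301 genes tested in all tables were called. The smallest adjusted p belonged to Lamp1 (0.000162), Sgsh (0.000233) and Gm2a (0.000762). The others were Lgmn, Npc2, Grn, Cd63, Pld3, Smpd1, Gusb, Pld4, Gaa, Atp6v1h and Laptm5, with adjusted p from 0.0011 to 0.0421. Without the table weights, the same limma F test no longer called Gusb (adjusted p = 0.0732), Smpd1 (adjusted p = 0.078) or Atp6v1h (adjusted p = 0.0822). Without the P6 stroke table, an alternative chosen after seeing the data, 5 members were called and Lamp1 gave an adjusted p of 0.624. Leaving out the glioma table gave 14 called members. The shares of all genes called in the refits without a table are not given. Those counts show how far the calls rest on a table and not a change particular to the members.

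On the deposited scale, the GFP-positive minus GFP-negative difference was more positive after stroke at day 28 than at day 6 for most of the members that differed. Results of this test after rescaling are not given here. The direct test called 13 members, 9 with a higher difference in P28 stroke and 4 with a lower one, where 9.94% of 12413 genes were called. Cd63 differed by 0.79 (SE 0.12, adjusted p = 0.000159), Grn by 0.71 (SE 0.12, adjusted p = 0.000626) and Pld3 by 0.63 (SE 0.12, adjusted p = 0.0013). Gm2a, Gusb, Naglu, Npc2, Galns and Glb1 were also higher in P28 stroke, by 0.37 to 0.85. The lower ones were Lamp1 at -1.53 (SE 0.36, adjusted p = 0.00814), Sgsh at -0.88 (SE 0.25, adjusted p = 0.026), Smpd1 at -0.70 (SE 0.17, adjusted p = 0.0104) and Lgmn at -0.39 (SE 0.10, adjusted p = 0.0103). Sgsh, Smpd1 and Lgmn were called lower in GFP-positive than in GFP-negative P28 stroke cells, and none of those calls held after rescaling. The 2 stroke groups differ in age at injury, in the interval to sampling, and in sex make-up, since P6 stroke replicates 1 and 2 expressed male and 3 and 4 female transcripts while P28 stroke was male, so these cannot be told apart.

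The other genes of the pathway are read against the shares of all genes given above for the same contrasts, and many of their counts lie near those shares. Of 28 other lysosomal enzymes, the GFP-positive against GFP-negative contrast called 4 up and 4 down in cuprizone, 1 and 0 in glioma, 1 and 1 in EAE, 1 and 3 in 5xFAD, 1 and 1 in P6 stroke, and 6 and 4 in P28 stroke. In P28 stroke 5.86% of all genes rose and 23.2% fell, and the other models had at most 2.7% and 7.49%. After rescaling the enzyme splits were 6 and 1, 2 and 0, 1 and 1, 7 and 0, 4 and 1, and 13 and 0 in the same order of models. Gla, alpha-galactosidase A, rose in P28 stroke by 1.74 (SE 0.23, adjusted p = 0.000153) and in glioma by 0.99 (SE 0.26, adjusted p = 0.0411). Lipa, lysosomal acid lipase, rose in EAE by 0.83 (SE 0.15, adjusted p = 0.0394). Of 23 other membrane proteins, 2 rose and 1 fell in cuprizone, 1 and 4 in glioma, 0 and 0 in EAE, 0 and 3 in 5xFAD, 0 and 2 in P6 stroke, and 2 and 8 in P28 stroke. After rescaling these were 4 and 1, 4 and 2, 0 and 0, 1 and 1, 1 and 1, and 6 and 1. Cd164, a sialomucin, fell in cuprizone at -1.22 (SE 0.11, adjusted p = 1.7e-05), in 5xFAD at -1.05 (SE 0.14, adjusted p = 0.000261), in P6 stroke at -0.59 (SE 0.13, adjusted p = 0.0295) and in P28 stroke at -1.35 (SE 0.14, adjusted p = 4.98e-05), and all 4 calls held after rescaling, at -0.93 (adjusted p = 6.96e-05), -0.70 (adjusted p = 0.00391), -0.46 (adjusted p = 0.0461) and -1.01 (adjusted p = 9.51e-05).

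Of 12 other pump subunits, the GFP contrast called 1 lower in cuprizone, 3 lower in 5xFAD and, in P28 stroke, 1 higher and 1 lower. Atp6v0a2, a membrane-sector subunit, had a called log2 difference of -1.45 (SE 0.31, adjusted p = 0.0102) in cuprizone and -1.45 (SE 0.21, adjusted p = 0.000517) in 5xFAD, both kept after rescaling. The pump subunit splits became 3 and 1 in cuprizone, 6 and 0 in glioma, 0 and 0 in EAE, 2 and 1 in 5xFAD, 1 and 0 in P6 stroke and 5 and 0 in P28 stroke under it. Of 15 genes that deliver lysosomal enzymes, 1 rose and 2 fell in glioma, 4 fell in 5xFAD, and 1 rose and 3 fell in P28 stroke, among them the sorting receptor Sort1 at -0.99 (SE 0.13, adjusted p = 0.000181). Rescaled, the delivery genes gave 1 and 0 in cuprizone, 3 and 1 in glioma, 0 and 0 in EAE, 1 and 0 in 5xFAD, 0 and 0 in P6 stroke and 3 and 2 in P28 stroke, and Sort1 remained called. Of 11 nutrient-sensing genes none rose on the deposited scale in any GFP-positive against GFP-negative contrast by limma's adjusted p, and 0 to 3 fell per model. In glioma 1 was higher at an unadjusted p below 0.05. There 4 of the 11 were below it in either direction, as were 3170 of the 14461 genes tested. Rptor, the raptor subunit of mTORC1, fell in cuprizone at -1.01 (SE 0.20, adjusted p = 0.00672), in 5xFAD at -0.83 (SE 0.22, adjusted p = 0.0311), in P6 stroke at -0.61 (SE 0.14, adjusted p = 0.0402) and in P28 stroke at -0.79 (SE 0.10, adjusted p = 0.000145). After rescaling the Rptor calls held in cuprizone and P28 stroke and ended in 5xFAD (-0.51 (adjusted p = 0.252)) and P6 stroke (-0.49 (adjusted p = 0.0541)), and the nutrient-sensing genes gave 1 and 0 in glioma, 0 and 1 in cuprizone, 2 and 1 in P28 stroke and no call in the other models.

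Some members share exonic bases with another annotated gene, and without strand the reads of such bases cannot be told apart. Beside Sgsh, Arsb and Lamp1, the shared part was 12.8% of Hexa (Tmem202), 7.65% of Cln3 (Apobr), 5.49% of Glb1 (Tmppe, on the same strand), 4.52% of Npc1 (Rmc1) and 3.51% of Ppt1 (Cap1), and under 2% of Grn and Atp6v1h. Rmc1 reached 61.2 TPM and was itself called lower in GFP-positive cells against the reference in glioma, 5xFAD and P28 stroke and against GFP-negative cells in P28 stroke, where Npc1 was also lower. The values of these genes carry that limit.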

How the data were processed

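The deposited tables hold TPM values (transcripts-per-million), which the authors computed per gene symbol and library with RSEM after trimming with cutadapt and alignment with STAR, per the submitters' processing notes (RSEM 1.3.3, cutadapt 2.10, builds GRCm38 and mm10). Each column has the same total, so TPM keeps no depth and no count model was used. Libraries were made by a modified SMART-Seq2 method, which does not mark strand, per the labels' protocols. Columns were assigned to samples by name, and no value column was left unused.

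Tables were fitted separately on log2(TPM + 1), using limma version 3.58.1 (R version 4.3.3), with all 3 groups in the fit and a trend of the variance on the mean. A gene was tested when its TPM reached 1 in a number of libraries equal to the size of the table's smallest group, and p-values were Benjamini-Hochberg adjusted over all of them, called below 0.05. Differences between models came from a fit over all tables with a variance weight per table. The procedure was tested on simulated data. Gene positions and lengths are from GENCODE M21.

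Values in every library are given for members called in the same direction in at least 4 of the 6 GFP contrasts, the 3 with the largest called difference in each direction of a contrast, and the 3 with the smallest adjusted p between models. The highest and lowest pair in reference groups and members never called are named, and up to 2 called genes of each other list per contrast could be named. A gene of those lists that the rule named is not reported here. Alternatives were a pseudocount of 0.1, no filter, median-of-ratios rescaling, only the 2 groups compared, a replicate block and each library left out. A term for sex was fitted where a table held both sexes, and its results are not given here. The tests between models were also run without table weights. The members and lists were chosen with earlier results of these data known.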

Additional observations from a re-analysis of the deposited data

Results flagged for a closer look

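Of 184 groups of 4 libraries examined for the named members, 12 had a highest or lowest library whose gap to its neighbour exceeded Dixon's critical share of the group's range. Chance alone flags about 5% of groups, which is close to this share. In the 5xFAD GFP-negative group library 4 was low for Gm2a (352 TPM, gap over range 0.909) and Npc2 (643 TPM, 0.928), library 1 for Pld3 (421 TPM, 0.936) and library 2 for Pld4 (1002 TPM, 0.917). Pld4 was also low in GFP-positive library 4 (688 TPM, 0.832), and Atp6v0c was high in control library 1 (1227 TPM, 0.94). P28 stroke GFP-positive library 4 was high for Laptm5 (5993 TPM, 0.853) and Lgmn (4656 TPM, 0.874). GFP-negative library 2 of that table was low for Tmem106b (37.6 TPM, 0.845) and library 1 was high for Atp6v0c (832 TPM, 0.876). Lgmn was low in cuprizone control library 1 (4535 TPM, 0.925) and Galns in glioma control library 1 (12.9 TPM, 0.862).

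The difference between GFP-positive and GFP-negative cells itself differed over the 6 models, by limma's F test with Benjamini-Hochberg adjustment, for 14 members. Their adjusted p were 0.000162 for Lamp1, 0.000233 for Sgsh, 0.000762 for Gm2a, 0.0011 for Lgmn, 0.00111 for Npc2, 0.00188 for Grn, 0.00379 for Cd63 and 0.00487 for Pld3. Smpd1 followed at 0.0183, Gusb at 0.019, Pld4 at 0.0326, Gaa at 0.0341, Atp6v1h at 0.036 and Laptm5 at 0.0421.

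Between P28 and P6 stroke the same difference was tested directly with limma. Adjusted p were 0.000159 for Cd63, 0.000626 for Grn, 0.0013 for Pld3, 0.00608 for Gusb, 0.00628 for Gm2a, 0.00814 for Lamp1, 0.00909 for Npc2, 0.0103 for Lgmn and 0.0104 for Smpd1. Naglu gave 0.0151, Galns 0.0221, Sgsh 0.026 and Glb1 0.0392. Lamp1, Sgsh, Smpd1 and Lgmn had the higher difference in P6 stroke and the other 9 members in P28 stroke.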

How the results depend on the processing

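Depth is unknown, each group holds 3 or 4 libraries, and the scale of TPM sets which members count as falling. Rescaling by median of ratios raised the members called between GFP-positive and GFP-negative cells to 19 in cuprizone, 8 in glioma and 7 in P6 stroke. Between GFP-negative cells and controls it gave 17 in glioma and 22 in EAE. It moved the 40-gene mean difference to 0.33 in cuprizone, 0.27 in glioma, 0.34 in 5xFAD, 0.24 in P6 stroke and 0.50 in P28 stroke. Lgmn reversed from a lower to a higher value in P28 stroke (0.021) and in glioma (0.15) under it; in glioma, where it was not called, its difference without single libraries ranged from -0.21 to 0.064, reversing without GFP-negative library 1 (0.05), GFP-negative library 2 (0.06) and GFP-positive library 3 (0.064). The cause was not tested.

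With no filter on low values, more genes share the adjustment and the GFP contrast called 1 member in glioma, 1 in EAE and 2 in P6 stroke, and GFP-negative cuprizone cells against controls 0. With only the 2 groups compared, which leaves fewer residual degrees of freedom, these were 0, 1, 2 and 0. Without the P6 stroke table, chosen after seeing the data, 5 members differed between models. The shares of all genes called in these refits are not given, so the counts do not show a change particular to the members.

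Leaving out single libraries gave 7 to 11 members called by GFP in cuprizone (7 without GFP-negative 3 or GFP-positive 3) and 0 to 6 in glioma (0 without GFP-negative 2 or GFP-positive 2, 1 without GFP-negative 1, 2 without GFP-negative 4, GFP-positive 3 or GFP-positive 4). EAE gave 1 to 5 (5 without GFP-negative 1, 1 without each of the others) and 5xFAD 5 to 9 (7 without GFP-negative 1, 5 without GFP-negative 4). P6 stroke gave 1 to 12 (12 without GFP-positive 1, 1 without GFP-positive 3), and P28 stroke 18 to 22. GFP-negative cells against the reference gave 0 to 1 in cuprizone (0 without control 2, control 3 or any GFP-negative library), 25 to 28 in glioma, 12 to 21 in EAE, 16 to 19 in 5xFAD and 0 in both strokes. GFP-positive cells against the reference gave 15 to 19 in cuprizone, 26 to 30 in glioma, 17 to 20 in EAE, 23 to 27 in 5xFAD, 3 to 8 in P6 stroke (3 without contralateral 1, 8 without GFP-positive 1) and 21 to 24 in P28 stroke. The tests between models gave 11 to 19 over all 6 and 10 to 14 over the strokes.

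A replicate block raised the glioma GFP count to 9 and left the other counts within 1.5 times. Over all pairs of groups, samples of the same number correlated at -0.08 to 0.20 in their deviations from group means. The lowest of these paired a glioma control with a glioma GFP-negative library. Glioma GFP-negative and GFP-positive libraries of the same number gave 0.145, 0.085, 0.203 and 0.007. In P28 stroke 11 of 12 were positive. No label ties a number to a shared animal, so whether the numbers are pairs is not known, and the main tests do not use them. In P6 stroke all 12 such correlations were positive (0.0013 to 0.14) and the numbers share a sex by transcripts, and the block there gave 6 members called by GFP. Of the values recomputed for single named members, 1021 kept direction and side of the threshold, 137 lost and 4 gained a call, and 5 reversed.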
